A study of Sus scrofa with 12 samples.

Results

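Porcine aortic valve interstitial cells (paVICs) treated with lysophosphatidylcholine (LPC) were compared gene by gene with paVICs treated with dantrolene, by RNA sequencing. The comparison used 6 of the 12 libraries of the series, 3 with LPC and 3 with dantrolene, and no vehicle library was read in it. The deposited counts had been adjusted for batch beforehand, and vehicle libraries may have entered that adjustment. The 3 libraries treated with both agents (LPC + dantrolene) were used only to see where they fell between the single treatments. All cells were wild type, came from primary isolations, and were kept for 24 h in low-serum medium. The LPC group received 10 μM LPC, dissolved in ethanol, with 0.6% DMSO. The dantrolene group received 60 μM dantrolene, dissolved in DMSO, with 0.1% ethanol, so both groups carried both solvents. Valves of several hearts from an abattoir were pooled for each isolation, and the age and sex of the pigs were not stated. Each of the 3 isolations gave 1 library per group on its own day. Libraries with the same replicate number were taken to share an isolation, which the labels do not state. The 2 agents were each given at a single dose, and without the vehicle libraries a difference cannot be assigned to one agent or the other. Directions are therefore given only as higher with LPC or higher with dantrolene.

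Valve interstitial cells are the fibroblast-like cells of the valve leaflet that lay down its matrix and are held responsible for calcification in calcific aortic valve disease. LPC is a lysophospholipid found in oxidized low-density lipoprotein that raises cytosolic calcium. Dantrolene is a muscle relaxant that inhibits ryanodine receptors, the calcium release channels of the endoplasmic reticulum. The aryl hydrocarbon receptor (AhR) is a ligand-activated transcription factor whose best known targets are the cytochrome P450 genes of family 1, and the peroxisome proliferator-activated receptors (PPARs) are fatty acid sensors whose targets include genes of lipid storage and oxidation.

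The 6 libraries held 16826942 to 24105935 counts. Levels are given as CPM, the counts relative to library size, scaled with TMM factors and not per length, so they compare libraries and not genes. The correlation of log2 CPM was 0.947 to 0.976 between replicates of a group and 0.944 to 0.968 between groups. The 12 markers of valve interstitial cells summed to 57793 to 93308 CPM in these libraries. Markers of endothelial cells summed to 113 to 155 CPM, those of leukocytes to at most 26.3 CPM, those of cardiomyocytes to 0 to 0.897 CPM, and those of erythroid cells to 0 to 0.161 CPM. The leukocyte markers PTPRC, CD163, CD3E, MS4A1, and LYZ had 0 counts in all 6 libraries. The share of counts from mitochondrially encoded genes was 1.53 to 2.84% with LPC and 2.16 to 4.17% with dantrolene, and was highest in dantrolene replicate 2.

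A total of 29 genes differed between LPC and dantrolene among 12594 tested (0.23%), of which 12 were higher with dantrolene (0.0953%) and 17 were higher with LPC (0.135%). A gene was called at an adjusted p under 0.05 with edgeR's quasi-likelihood test and Benjamini-Hochberg adjustment. The 12 were led by CYP1B1 and CYP1A1, and the 17 by ANGPTL4 and PDK4. The 3 libraries of one group did not overlap those of the other for any of the 29, and for 9.71% of all genes tested. Separation of the groups rests on the same values as the p, so it is given below as a description and not as further support. The smallest difference called was 1.29 on the log2 scale (PFKFB3), and over all genes tested the log2 values had a median of 0.01 and were above 0 for 6517 genes. DESeq2's Wald test, run as an alternative, called 0.262% of genes higher with dantrolene and 0.524% higher with LPC, among them all 29. With the isolation as a block, CYP1B1, CYP1A1, ANGPTL4, and PDK4 were the 4 genes still called (adjusted p = 0.000973, 0.00302, 0.00354, and 0.00481), and the others had an adjusted p of 0.0609 to 0.285. The counts also depended on single libraries, falling to 6 and 6 genes (higher with dantrolene and higher with LPC) without LPC replicate 1, 1 and 1 without LPC replicate 2, 2 and 3 without LPC replicate 3, and 7 and 14 without dantrolene replicate 3, and reaching 16 and 38 without dantrolene replicate 1 and 14 and 26 without dantrolene replicate 2. CYP1B1 and ANGPTL4 were called under each of 13 alternative settings. Every other gene of the 29 lost its call without LPC replicate 2, and the highest adjusted p that any of the 29 reached under an alternative was 0.367 (SORBS2).

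**Figure D1:**
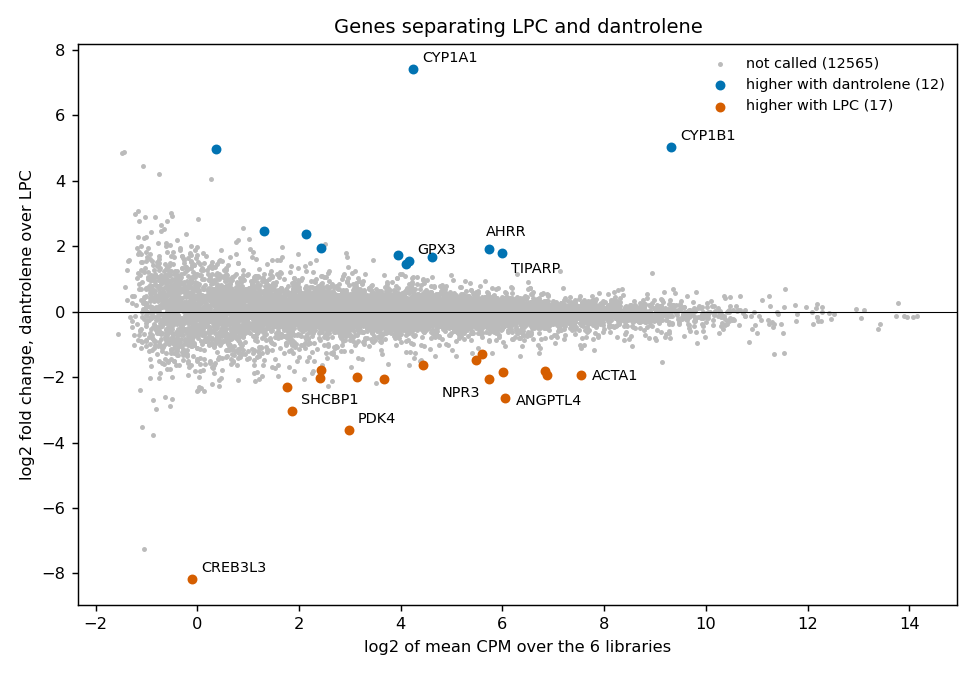
Log2 fold change of dantrolene over LPC (vertical axis) against the log2 of the mean CPM over the 6 libraries (horizontal axis) for 12594 genes. Each point is a gene. The 12 genes higher with dantrolene are blue, the 17 higher with LPC are orange, and CYP1B1 stands apart as both abundant and far from 0. The point for CREB3L3 depends on the prior count, since all 3 dantrolene libraries held none of its counts.

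The AhR pathway held 4 called genes among 10 tested, all of them higher with dantrolene, against 0.0953% of all genes. The median log2 fold change of the list was 0.92. This list and those below were chosen with earlier results of these data known, so such shares are given as descriptions. CYP1B1 (ENSSSCG00000033844) encodes a P450 enzyme that oxidizes steroids and aromatic hydrocarbons. Its level was 61.9, 31.0, and 21.5 CPM in LPC replicates 1 to 3 and 802, 907, and 2021 CPM in dantrolene replicates 1 to 3. The lowest dantrolene library was thus far above the highest LPC library, with means of 38.2 ± 21.1 and 1244 ± 675 CPM (mean ± SD, n = 3). The log2 fold change was 5.03 (SE 0.46, adjusted p = 0.000113, edgeR), or 32.6-fold, and within isolations 1, 2, and 3 the log2 difference was 3.69, 4.87, and 6.55.

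CYP1A1 (ENSSSCG00000001906, chr7:58802887-58809155 of Sscrofa11.1), the P450 enzyme classically used as a readout of AhR activity, was nearly undetected with LPC. LPC replicate 1 had 0.633 CPM and the other LPC libraries had 0, while the dantrolene libraries had 14.1, 43.8, and 55.2 CPM. The groups did not overlap, and the fitted log2 fold change was 7.41 (SE 0.75, adjusted p = 0.000217, edgeR), a size that depends on the prior count because it rests on 12 counts with LPC. Without LPC replicate 2 its adjusted p was 0.0524, the highest of its 12 alternatives. Reads of CYP1A1 and its close relative CYP1A2 may have been split between the genes.

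The feedback genes of the pathway were called in the same direction. TIPARP (chr13:96496386-96524879), an ADP-ribosyltransferase that limits AhR activity, had 34.1, 26.6, and 24.4 CPM with LPC and 70.5, 110, and 116 CPM with dantrolene. The groups did not overlap, and the difference was 1.80 on the log2 scale (SE 0.25, adjusted p = 0.00699, 0.0622 with the isolation as a block). AHRR (chr16:79730920-79810183), which encodes the AhR repressor, had 32.1, 13.8, and 21.0 CPM with LPC and 62.4, 85.5, and 107 CPM with dantrolene. Its groups did not overlap either, and its difference was 1.93 (SE 0.30, adjusted p = 0.0144, 0.0635 with the block). Both genes were no longer called without LPC replicate 2 or LPC replicate 3, with an adjusted p of up to 0.113 for TIPARP and 0.122 for AHRR. NQO1, a quinone reductase that AhR and NRF2 both regulate, had 69.2, 104, and 79.4 CPM with LPC and 233, 135, and 224 CPM with dantrolene, without overlap, and missed the threshold (log2 1.23, adjusted p = 0.0841). The receptor AHR itself, its partner ARNT, and the amino acid transporter gene SLC7A5 had log2 values of −0.10, 0.00, and 0.08, and their groups overlapped.

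The other genes higher with dantrolene had no common list. GPX3 (chr16:71980467-71989011), a secreted glutathione peroxidase, had 6.33, 12.5, and 8.48 CPM with LPC and 23.0, 25.1, and 31.7 CPM with dantrolene (log2 1.55, SE 0.29, adjusted p = 0.037). MT1X, a metallothionein that binds zinc and copper, had 2.69, 0.791, and 0.805 CPM with LPC and 6.51, 7.93, and 7.77 CPM with dantrolene (log2 2.36, SE 0.46, adjusted p = 0.0447). In both genes the groups were separate, although metallothionein genes are similar enough to share reads. KIF12 (chr1:254711820-254720559), a kinesin motor, had 10.2, 6.10, and 5.31 CPM with LPC and 18.7, 29.2, and 23.3 CPM with dantrolene (log2 1.72, SE 0.30, adjusted p = 0.0302). ZBTB16 (chr9:41639536-41839254), a zinc finger repressor of transcription also known as PLZF, had 3.27, 2.09, and 1.23 CPM with LPC and 7.77, 7.89, and 10.1 CPM with dantrolene (log2 1.96, SE 0.38, adjusted p = 0.0447). PLEKHA6 (chr9:64876803-65027455), a pleckstrin homology domain protein of cell junctions, was 3.16-fold higher with dantrolene (11.7 ± 3.17 and 37.1 ± 12.1 CPM, adjusted p = 0.0302). None of these was called with the isolation as a block, where the adjusted p was 0.155, 0.169, 0.159, 0.238, and 0.0822, in the order named.

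Among genes without a symbol, ENSSSCG00000048802 had 0, 0.17, and 0.0536 CPM with LPC and 2.63, 1.91, and 2.95 CPM with dantrolene (adjusted p = 0.0196). ENSSSCG00000002825 had 1.00, 0.565, and 0.697 CPM with LPC and 3.94, 3.83, and 4.94 CPM with dantrolene (adjusted p = 0.037). Both were separate between the groups and low in all 6 libraries. The remaining gene of the 12 also had no symbol. Of the 22 NRF2 targets and antioxidant genes tested, GPX3 was called higher with dantrolene and TXNIP higher with LPC, and the median log2 fold change was 0.26. Another 3 were higher with dantrolene at an unadjusted p under 0.05, a threshold that 5.56% of all genes passed in either direction and 2.3% in that direction. They were GCLC, the catalytic subunit of glutathione synthesis, the peroxidase PRDX1, and the ferritin light chain FTL, with log2 values of 0.89, 0.68, and 0.70. Their groups did not overlap, as was so for 9.71% of all genes. List members named here and below for an unadjusted p, other than the most abundant of their list, were chosen after their values were seen.

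**Figure D2:**
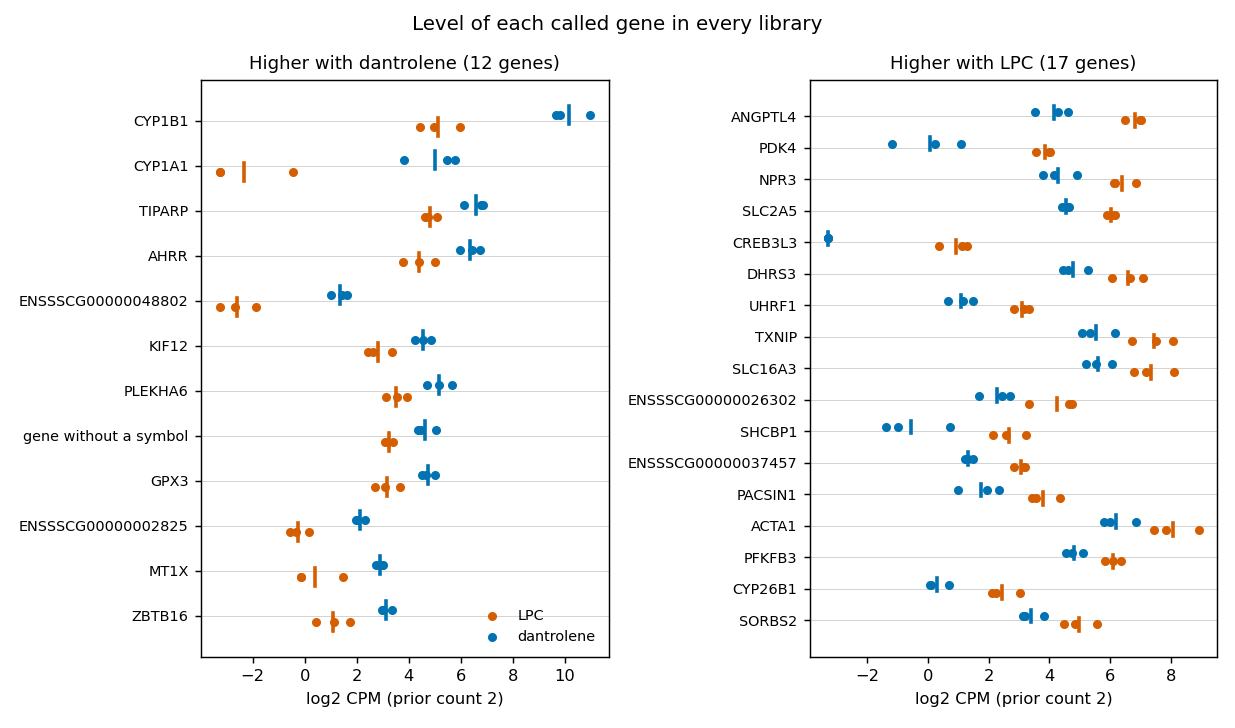
Level of each of the 29 genes in every library, as log2 CPM with a prior count of 2 (horizontal axis). Orange points are the 3 LPC libraries, blue points the 3 dantrolene libraries, and vertical bars the group means. The groups do not overlap for any gene shown, and 2 LPC points of CYP1A1 and 3 dantrolene points of CREB3L3 lie on top of each other at 0 counts.

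The genes with the smallest adjusted p among those higher with LPC were ANGPTL4 and PDK4, both known PPAR targets. ANGPTL4 (ENSSSCG00000013599, chr2:70905767-70912892), a secreted inhibitor of lipoprotein lipase, had 127, 129, and 89.4 CPM with LPC and 11.4, 19.2, and 24.6 CPM with dantrolene. The lowest LPC library was well above the highest dantrolene library, with means of 115 ± 22.2 and 18.4 ± 6.61 CPM. Its log2 fold change was −2.64 (SE 0.29, adjusted p = 0.000446, edgeR), which is 6.25-fold higher with LPC, and the values within isolations 1, 2, and 3 were −3.46, −2.74, and −1.86. PDK4 (ENSSSCG00000015334, chr9:75246956-75260134), the kinase that switches off pyruvate dehydrogenase when fatty acids are burned, had 15.8, 16.2, and 11.8 CPM with LPC and 0.343, 2.03, and 1.08 CPM with dantrolene. The groups did not overlap, and the log2 fold change was −3.61 (SE 0.45, adjusted p = 0.00181), or 12.2-fold higher with LPC. Without LPC replicate 2 the adjusted p of PDK4 was 0.0718, the highest of its 12 alternatives.

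ANGPTL4 and PDK4 were the 2 called among 21 PPAR targets and genes of fatty acid oxidation tested, against 0.135% of all genes called higher with LPC. The rest of the list did not follow them as a whole, since 9 of the 21 had a positive log2 fold change and the median was −0.20. Another 3 were higher with LPC at an unadjusted p under 0.05, which 3.26% of all genes were. CPT1A, the carrier enzyme that admits long-chain fatty acids to mitochondria, had 254, 175, and 313 CPM with LPC and 105, 139, and 121 CPM with dantrolene (log2 −1.02, adjusted p = 0.167). The lipid droplet coat gene PLIN2 and the carnitine carrier gene SLC25A20 had log2 values of −0.82 and −0.71. The β-oxidation genes HADHA and HADHB had values of −0.20 and 0.05, with overlapping groups. CREB3L3 (chr2:74578471-74588269), a membrane-bound transcription factor of lipid metabolism, was on none of the lists. It had 2.06, 1.19, and 2.36 CPM with LPC and 0 counts in all 3 dantrolene libraries (adjusted p = 0.0144, 0.152 with the isolation as a block). Set against a floor of 3 counts per library (0.117 to 0.171 CPM in the dantrolene libraries, mean 0.153 CPM), it was at least 12.2-fold higher with LPC.

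SLC16A3 and PFKFB3 of the glycolysis list were higher with LPC, as were TXNIP, from the antioxidant list, and SLC2A5, which was on no list. SLC2A5 (chr6:69507829-69535794), a fructose transporter, had 59.2, 66.2, and 70.8 CPM with LPC and 21.1, 25.0, and 24.4 CPM with dantrolene. These groups were far apart and each was tight (log2 −1.48, SE 0.22, adjusted p = 0.0114, 0.0822 with the block), and the values within isolations 1, 2, and 3 were −1.49, −1.40, and −1.53. SLC16A3 (chr12:796882-807480), the exporter of lactate known as MCT4, had 144, 278, and 110 CPM with LPC and 45.9, 37.2, and 66.8 CPM with dantrolene (log2 −1.83, SE 0.33, adjusted p = 0.0324). PFKFB3 (chr10:64776315-64859118), which makes the sugar phosphate that activates phosphofructokinase, had 56.8, 81.4, and 68.5 CPM with LPC and 23.1, 26.9, and 34.7 CPM with dantrolene (log2 −1.29, SE 0.24, adjusted p = 0.0377). For both genes every LPC library was above every dantrolene library. TXNIP (chr4:99348589-99351760), which binds thioredoxin and restrains glucose uptake, had 105, 183, and 271 CPM with LPC and 71.8, 40.2, and 33.4 CPM with dantrolene (log2 −1.94, SE 0.34, adjusted p = 0.0302). The block gave an adjusted p of 0.169 for SLC16A3, PFKFB3, and TXNIP.

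SLC16A3 and PFKFB3 were the 2 called among 17 glycolysis genes tested, against 0.135% of all genes, and 14 of the 17 had a negative log2 fold change (median −0.56). A further 7 were higher with LPC at an unadjusted p under 0.05, as were 3.26% of all genes. DESeq2 called 4 of the list higher with LPC (SLC16A3, PFKFB3, HK2, and LDHA), against 0.524% of all genes. Hexokinase 2 (HK2) had 77.9, 69.1, and 59.5 CPM with LPC and 18.2, 31.8, and 37.6 CPM with dantrolene, without overlap (log2 −1.24, adjusted p = 0.102). Lactate dehydrogenase A (LDHA) had 976, 1545, and 1047 CPM with LPC and 593, 469, and 787 CPM with dantrolene (log2 −0.95, adjusted p = 0.375). TPI1, PGAM1, PFKL, PGK1, and HK1 had log2 values of −0.86, −0.76, −0.68, −0.67, and −0.56. The abundant enzymes ENO1 and PKM had −0.38 and −0.37, and their groups overlapped.

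No gene of the 21 HIF-1 targets on this list was called by edgeR, although 18 had a negative log2 fold change (median −0.54). The list leaves out SLC16A3, PFKFB3, and ANGPTL4, which HIF-1 can also regulate. These were called higher with LPC and are counted above under glycolysis and PPAR targets. At an unadjusted p under 0.05, 9 were higher with LPC, against 3.26% of all genes. DESeq2 called 2 of the list higher with LPC, BNIP3 among them, against 0.524% of all genes. BNIP3, a mitophagy receptor, had 262, 430, and 229 CPM with LPC and 143, 88.0, and 177 CPM with dantrolene (log2 −1.18, adjusted p = 0.19). The groups were separate, as were those of the prolyl hydroxylase P4HA1 (−0.71) and the lysyl oxidase LOX (−0.64). CA12, a carbonic anhydrase, was the member that was higher with dantrolene at an unadjusted p under 0.05 (log2 0.99). VEGFA had a log2 value of −0.57 with overlapping groups.

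Of the retinoid pathway, 2 of the 15 genes tested were called, both higher with LPC, against 0.135% of all genes. DHRS3 (chr6:72556234-72599233), which reduces retinaldehyde back to retinol, had 67.2, 101, and 134 CPM with LPC and 38.9, 22.0, and 24.4 CPM with dantrolene (log2 −1.83, SE 0.29, adjusted p = 0.0151, 0.0938 with the block). CYP26B1, which breaks down retinoic acid, had 8.02, 4.18, and 4.61 CPM with LPC and 0.971, 0.937, and 1.53 CPM with dantrolene (log2 −2.29, SE 0.44, adjusted p = 0.0377, 0.285 with the block). The groups of both were separate. RDH10, which oxidizes retinol to retinaldehyde, was higher with dantrolene at an unadjusted p under 0.05 (log2 0.94, adjusted p = 0.532). The receptors RARA, RARG, RXRA, and RXRB had log2 values of 0.08, 0.27, 0.35, and 0.16 with overlapping groups, and the median of the list was 0.07.

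NPR3 of the vasoactive list and SORBS2 of the contractile list were higher with LPC, as was ACTA1, which was on no list. NPR3 (chr16:18841540-18929813), the receptor that clears natriuretic peptides, had 69.7, 71.2, and 116 CPM with LPC and 17.7, 30.3, and 13.8 CPM with dantrolene. The groups were widely separated (log2 −2.05, SE 0.31, adjusted p = 0.0114, 0.0609 with the block). NPR3 was the gene called among 23 vasoactive peptides and receptors tested, against 0.135% of all genes. The peptide hormone gene APLN had 32.8, 31.9, and 19.4 CPM with LPC and 11.6, 7.26, and 12.9 CPM with dantrolene, without overlap, and missed the threshold (log2 −1.41, adjusted p = 0.0707). The prostacyclin synthase PTGIS and the inducible cyclooxygenase PTGS2 had log2 values of −0.84 and 0.92, each with overlapping groups. DESeq2 called APLN but neither of these. AGTR1, the angiotensin II receptor gene, had a value of −0.53 (adjusted p = 0.952) with groups that did not overlap, as was so for 9.71% of all genes.

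SORBS2 (chr15:46585599-46910679), an adaptor of the actin cytoskeleton, had 29.0, 22.2, and 47.8 CPM with LPC and 9.08, 14.2, and 8.68 CPM with dantrolene (log2 −1.63, SE 0.31, adjusted p = 0.0396, 0.224 with the block). ACTA1 (chr14:60412651-60415687), skeletal muscle actin, had 176, 228, and 486 CPM with LPC and 115, 63.1, and 55.3 CPM with dantrolene (log2 −1.93, SE 0.36, adjusted p = 0.0377, 0.204 with the block). Both pairs of groups were separate, but reads of ACTA1 can be shared with the near-identical coding sequence of other actins. SORBS2 was the gene called among 19 contractile genes tested, against 0.135% of all genes, and 18 of the 19 had a negative log2 fold change (median −0.39). At an unadjusted p under 0.05, 5 of the list were higher with LPC, SORBS2 among them, against 3.26% of all genes. Desmin (DES), caldesmon (CALD1), and calponin (CNN1) were also among the 5, with log2 values of −1.05, −0.64, and −0.58. The groups of DES overlapped, and those of CALD1 and CNN1 did not. ACTA2, the smooth muscle actin used as a marker of activated valve interstitial cells, had 10539, 13955, and 18160 CPM with LPC and 16466, 10520, and 11928 CPM with dantrolene. Its groups overlapped (log2 −0.13, SE 0.34), as did those of TPM1 (−0.21) and TAGLN (−0.30).

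Of the remaining genes higher with LPC, UHRF1 (chr2:73898061-73937727), which recruits the maintenance DNA methyltransferase in dividing cells, had 9.97, 7.01, and 8.80 CPM with LPC and 1.48, 2.11, and 2.72 CPM with dantrolene (log2 −2.03, SE 0.36, adjusted p = 0.0302). SHCBP1 (chr6:38029869-38063773), a partner of the adaptor SHC1 found in dividing cells, had 9.34, 4.35, and 5.85 CPM with LPC and 0.285, 1.56, and 0.397 CPM with dantrolene (log2 −3.04, SE 0.56, adjusted p = 0.037). Both genes were separate between the groups, and both had an adjusted p of 0.169 with the isolation as a block. PACSIN1 (chr7:30459851-30512736), which bends membranes during endocytosis, was 4.02-fold higher with LPC (14.2 ± 5.38 and 3.50 ± 1.53 CPM, adjusted p = 0.037, 0.222 with the block). The 17 also held 2 genes without a symbol. ENSSSCG00000026302 was 4.14-fold higher with LPC (20.5 ± 9.15 and 4.93 ± 1.71 CPM, adjusted p = 0.037), and ENSSSCG00000037457 was 3.42-fold higher (8.31 ± 1.08 and 2.43 ± 0.239 CPM, adjusted p = 0.037).

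No gene of the cell cycle list was called by edgeR, but 20 of the 24 tested had a negative log2 fold change and the median was −0.75. At an unadjusted p under 0.05, 11 were higher with LPC, against 3.26% of all genes. The 11 included the replicative helicase subunits MCM2 (−1.04) and MCM3 (−1.21), the mitotic kinase PLK1 (−1.38), and BIRC5, which encodes survivin (−1.50). TOP2A, which untangles DNA before division, had 25.6, 18.1, and 12.4 CPM with LPC and 0.0571, 9.49, and 2.55 CPM with dantrolene (log2 −2.18, adjusted p = 0.461). Its groups did not overlap, but the dantrolene libraries varied widely. The other direction held 2 members at an unadjusted p under 0.05, against 2.3% of all genes. CDKN1A, the p21 inhibitor of cyclin-dependent kinases, had 376, 269, and 258 CPM with LPC and 526, 795, and 714 CPM with dantrolene, without overlap (log2 1.17, adjusted p = 0.109). TYMS, the thymidylate synthase, had a log2 value of 0.78. DESeq2 called MCM2 and BIRC5 higher with LPC and CDKN1A higher with dantrolene, against 0.524% and 0.262% of all genes.

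**Figure D3:**
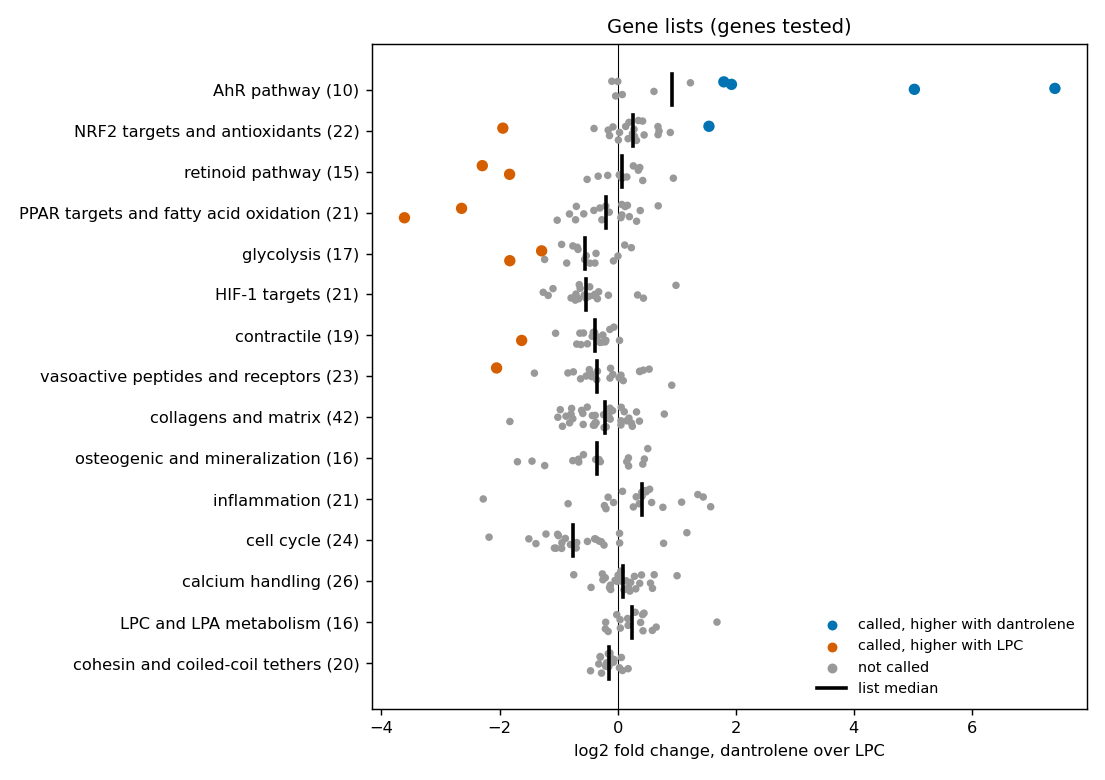
Log2 fold change of dantrolene over LPC (horizontal axis) for the genes of 15 lists, with the number of genes tested in brackets. Blue and orange points are called genes, grey points are genes not called, and black bars are list medians, from 0.92 for the AhR pathway to −0.75 for the cell cycle. The vertical scatter within a list has no meaning.

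Matrix, mineralization, and growth factor genes held no member called by edgeR. DESeq2 called LOXL4 and PLOD2 among matrix genes, ADAMTS1 among proteases, SPP1, TNFRSF11B, and HDAC9 among mineralization genes, and INHBA among TGF-β genes, all higher with LPC. It called 0.524% of all genes in that direction. Of 42 collagens and matrix genes tested, 31 had a negative log2 fold change (median −0.21). Against 3.26% of all genes, 10 were higher with LPC at an unadjusted p under 0.05. These included the collagen-modifying enzymes PLOD2 (−0.87) and LOXL4 (−1.01) and the matricellular genes TNC (−0.81) and CCN2 (−0.93). The main fibrillar collagens and fibronectin overlapped between the groups, with log2 values of −0.17 for COL1A1, −0.15 for COL1A2, −0.39 for COL3A1, and −0.15 for FN1. Of 16 osteogenic and mineralization genes tested, 6 were higher with LPC at an unadjusted p under 0.05, against the same 3.26% of all genes. Osteopontin (SPP1) had 29.3, 21.6, and 25.1 CPM with LPC and 7.59, 13.3, and 11.3 CPM with dantrolene (log2 −1.24, adjusted p = 0.104). The histone deacetylase HDAC9 had 7.70, 10.9, and 18.6 CPM with LPC and 3.65, 5.35, and 2.38 CPM with dantrolene (log2 −1.70, adjusted p = 0.109). The groups of both were separate, as were those of TNFRSF11B (−1.45), which encodes osteoprotegerin.

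The osteoblast and cartilage regulators RUNX2 and SOX9 did not pass the test. RUNX2 had 35.6, 19.0, and 30.0 CPM with LPC and 35.3, 41.7, and 43.4 CPM with dantrolene (log2 0.51, SE 0.26, adjusted p = 0.953). SOX9 had 24.1, 31.2, and 27.1 CPM with LPC and 58.6, 20.2, and 34.2 CPM with dantrolene (log2 0.45, SE 0.31). Both overlapped between the groups. A list of 27 tested genes held 3 called in each direction and a median of −0.12. It joined genes that the study names in its sequencing results or discussion with ryanodine receptor genes. The list also holds ACTA2, RUNX2, and SOX9, which the study measured by quantitative PCR. Those named for the sequencing were chosen on these samples. Of 26 genes of TGF-β and BMP signaling tested, the activin subunit INHBA (−1.01) and the ligands TGFB2 (−0.81) and TGFB3 (−0.77) were among 4 higher with LPC at an unadjusted p under 0.05, and the median was −0.12. Of all genes, 3.26% were higher with LPC and 2.3% higher with dantrolene at that p. Of 14 matrix proteases and inhibitors tested, 3 were higher with LPC at that p, ADAMTS1 (−1.42), ADAMTS9 (−0.92), and ADAMTS14 (−1.71). MMP14 (0.61) was higher with dantrolene at that p, and the median was 0.20. The groups of ADAMTS9 and MMP14 overlapped. ADAMTS14 was low in both groups, with 1.30 to 2.68 CPM with LPC and 0.171 to 1.17 CPM with dantrolene.

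The inflammation list held no gene called by edgeR and 1 called higher with dantrolene by DESeq2, IL6R, against 0.262% of all genes. Of 21 genes tested, 15 had a positive log2 fold change (median 0.41), and 6 were higher with dantrolene at an unadjusted p under 0.05 against 2.3% of all genes. The interleukin 6 receptor IL6R had 5.80, 2.60, and 4.77 CPM with LPC and 10.3, 12.0, and 11.6 CPM with dantrolene (log2 1.36, adjusted p = 0.148). The NF-κB cofactor BCL3 had 15.3, 6.61, and 10.5 CPM with LPC and 25.9, 17.8, and 25.0 CPM with dantrolene (log2 1.08, adjusted p = 0.302). Both were separate between the groups, while the chemokine CXCL8 (1.58) and complement C3 (1.45) overlapped. The protease inhibitor SLPI was higher with LPC at that p (log2 −2.28) and overlapped.

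Genes that handle calcium, where dantrolene acts, held no gene called by edgeR or DESeq2 among 26 tested. The median was 0.09, and 2 were higher with dantrolene and 1 higher with LPC at an unadjusted p under 0.05. Of all genes, 2.3% and 3.26% passed that p in these directions. RYR3, a ryanodine receptor, had 29.6, 24.9, and 31.4 CPM with LPC and 31.2, 24.9, and 23.1 CPM with dantrolene (log2 −0.12, SE 0.24). RYR2 was below 1 CPM in all 6 libraries (log2 0.18, SE 0.67). The sarcoplasmic calcium pump gene ATP2A2 and the plasma membrane pump gene ATP2B4 had log2 values of −0.12 and −0.25, and all of these groups overlapped. Of the genes of LPC and LPA metabolism, 0 of 16 tested were called by edgeR or by DESeq2, and the median was 0.24. ENPP2, which encodes autotaxin, the enzyme that turns LPC into lysophosphatidic acid, was the member higher with dantrolene at an unadjusted p under 0.05 (log2 1.68, adjusted p = 0.458, overlapping groups). None of the 17 genes of the unfolded protein and integrated stress response passed an unadjusted p under 0.05, and their log2 values ran from −0.31 to 0.13. Of 30 sterol and fatty acid synthesis genes tested, 1 in each direction passed that p, and the median was 0.01. Of the 15 angiogenic secreted factors tested none was called by edgeR, and ESM1 was called higher with LPC by DESeq2, against 0.524% of all genes. At an unadjusted p under 0.05, 3 were higher with LPC, ESM1 (−1.49), ANGPT1 (−1.84), and PDGFB (−1.01), against 3.26% of all genes.

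Genes of cohesin and long coiled-coil proteins varied widely among the dantrolene libraries. None of the 20 tested passed an unadjusted p under 0.05 with edgeR, and DESeq2 called none. SMC3, a cohesin subunit, had 60.7, 72.0, and 47.0 CPM with LPC and 25.6, 92.9, and 42.7 CPM with dantrolene. Dantrolene replicate 1 was the lowest and dantrolene replicate 2 the highest of the 6 libraries for this gene. The same held for NIPBL, which loads cohesin, with 50.8, 55.7, and 37.4 CPM with LPC and 18.6, 63.5, and 33.0 CPM with dantrolene. The median log2 difference of the 20 genes was −1.03, 0.39, and −0.23 within isolations 1, 2, and 3.

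The other lists were also read within isolations. The AhR pathway was positive in each, with medians of 1.00, 0.56, and 1.48 in isolations 1, 2, and 3. Glycolysis (−0.24, −0.88, and −0.39), HIF-1 targets (−0.21, −0.90, and −0.37), contractile genes (−0.09, −0.15, and −0.88), and the cell cycle (−1.30, −0.12, and −0.73) were negative in each, but unequal in size. The sign was not the same in all 3 isolations for collagens and matrix genes (0.34, −0.70, and −0.59), TGF-β and BMP genes (0.27, −0.25, and −0.35), vasoactive genes (−0.09, 0.05, and −0.37), matrix proteases (−0.07, −0.11, and 0.20), and inflammation genes (−0.01, 0.60, and 0.47). The median over all genes tested was 0.01, 0.00, and 0.02. Mitochondrially encoded genes, none of which passed an unadjusted p under 0.05, had 12 of 13 positive values and a median of 0.36 (0.37, 0.46, and 0.04 within isolations). Of 10 endothelial markers tested, 5 had a positive and 5 a negative log2 fold change, from −1.75 to 1.63 (median 0.05), and none was called. CDH5 (log2 −0.70) and TEK (−1.75, 4 to 24 counts per library) were higher with LPC at an unadjusted p under 0.05. Of all genes, 3.26% were higher with LPC at that p. Of 12 valve interstitial markers tested 1 was higher with LPC at that p and the median was −0.15, and of the leukocyte markers CD14 and CD68 were tested and did not pass it. The part of these shares in the differences above was not tested.

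**Figure D4:**
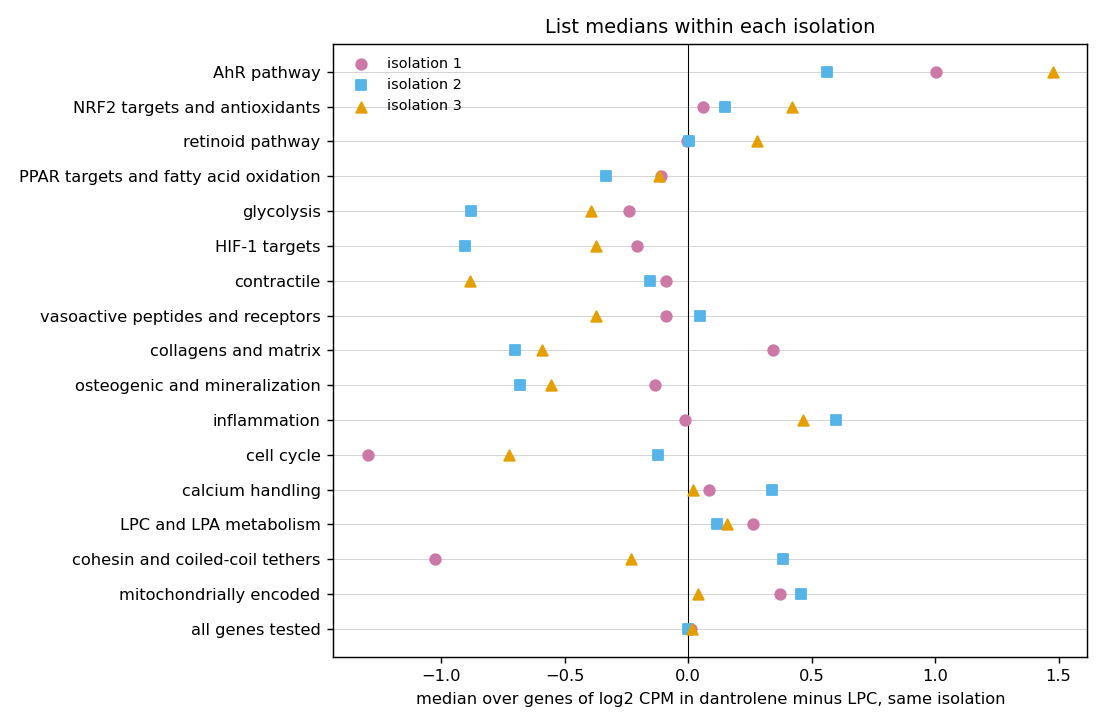
Median over the genes of each list of the log2 CPM difference between the dantrolene and the LPC library of the same isolation (horizontal axis). Circles, squares, and triangles are isolations 1, 2, and 3. The AhR pathway lies to the right in all 3, glycolysis, HIF-1 targets, contractile genes, and the cell cycle lie to the left in all 3, and cohesin and coiled-coil genes lie on both sides of 0.

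In the libraries treated with both agents, which took no part in choosing the genes, most of the 29 genes were nearer to dantrolene than to LPC. On a log2 CPM scale with the LPC mean at 0 and the dantrolene mean at 1, the mean of LPC + dantrolene was nearer to dantrolene for 11 of the 12 genes higher with dantrolene (median position 1.01) and for 14 of the 17 genes higher with LPC (median position 0.86). All 3 LPC + dantrolene libraries were nearer to dantrolene for 9 of the 12 and for 5 of the 17. CYP1B1 had 988, 393, and 2540 CPM in LPC + dantrolene replicates 1 to 3 and CYP1A1 had 46.0, 23.1, and 49.7 CPM, with positions of 0.96 and 1.03. NPR3 (29.2, 11.2, and 17.4 CPM), SLC16A3 (43.7, 64.2, and 57.2 CPM), and SLC2A5 (20.2, 36.3, and 17.8 CPM) had positions of 1.06, 0.91, and 1.00.

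ANGPTL4 was an exception. Its 127, 148, and 117 CPM with LPC + dantrolene lay around the LPC libraries and above all dantrolene libraries, with a position of −0.07. CYP26B1 (5.72, 2.54, and 2.71 CPM, position 0.30) was nearer to LPC in all 3 libraries, and PDK4 (10.9, 3.04, and 10.3 CPM, position 0.27) in its mean. The gene higher with dantrolene that was nearer to LPC was ENSSSCG00000048802, with 0.055, 0.0634, and 0 CPM (position −0.05). The LPC + dantrolene libraries were spread widely for some genes. TXNIP had 65.5, 99.3, and 10.7 CPM and ACTA1 had 66.3, 183, and 18.1 CPM, and both means lay past the dantrolene mean on the log2 scale. These positions are descriptions without a test.

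**Figure D5:**
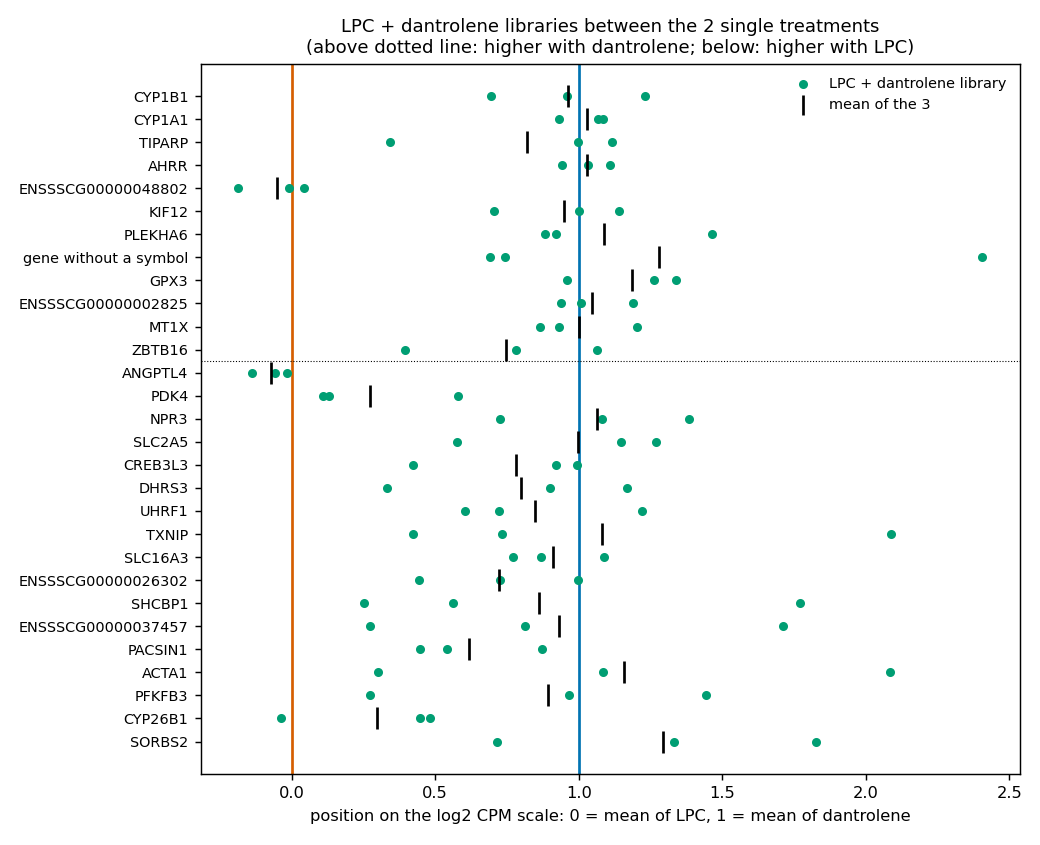
Position of the LPC + dantrolene libraries for each of the 29 genes on the log2 CPM scale (horizontal axis), where 0 is the mean of the LPC libraries (orange line) and 1 the mean of the dantrolene libraries (blue line). Green points are the 3 LPC + dantrolene libraries and black bars their mean. Most means lie near 1, and those of ENSSSCG00000048802, ANGPTL4, PDK4, and CYP26B1 lie nearer to 0.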

How the data were processed

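RNA was sequenced from paVICs after 24 h of treatment. The authors aligned and annotated the reads and removed batch effects between experiments with ComBat. The deposited table holds the resulting counts, whole numbers without scaling for library size. Their methods name the aligner STAR, while the submitters' processing notes list HISAT2 2.0.5, R 4.1.1, DESeq2 1.32.0, and the build Sscrofa11.1, and which of these made the count table could not be settled. Strand settings were not given in the sources used here. Which libraries entered the ComBat adjustment was not stated, so vehicle libraries may have shaped the deposited values of the 6 libraries compared. Because ComBat had already spent degrees of freedom, which the fits below treat as free, the adjusted p-values may be lower than they should be. The authors also deposited tables of their own comparisons, with fold changes and p-values per gene, which were not used.

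Of 31908 genes, 18169 had a count in the 6 libraries and 12594 passed filterByExpr on the 2 groups. Of the genes tested, 10587 carried a symbol in the file, 546 got theirs from a separate name table, and 1461 stayed unnamed. TMM factors scaled the counts, and the model was run in R 4.3.3 with edgeR 4.0.16 (quasi-likelihood test, group as the only term, Benjamini-Hochberg over all genes tested). Log2 fold changes are dantrolene minus LPC, SE is that of the fit, and log2 CPM used a prior count of 2. Positions of LPC + dantrolene used factors from 9 libraries. Coordinates are those of RefSeq for Sscrofa11.1, matched by symbol for 21 of the 29 genes called. The fit was tested on simulated data, where it called 37 of 97 genes changed 2-fold and 81 of 96 genes changed 4-fold. It also called 9 genes that were left unchanged. A list without a called gene can therefore still hold 2-fold differences. The simulated libraries were independent, with no isolation effect and no batch adjustment, so these rates may not hold for the real data. The floor of 3 counts covers counting error only.

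Libraries with the same replicate number were taken to share an isolation, and the block used that number. The labels give the number alone, and the methods do not tie it to an isolation. Deviations from the group means correlated at −0.259, −0.188, and −0.402 within isolations and at 0.0641 to 0.210 between them. Since the deposited counts had already been adjusted for batch, these values were not used to judge the pairing. The members and the 27 gene lists were chosen with earlier results of these data known, and the lists were given no test. Genes named were up to 15 per direction with the smallest adjusted p, a symbol, and the same direction in all 3 isolations. Also named were called members of the lists, genes the study names in its sequencing results or discussion, ryanodine receptor genes, and the most abundant members of each list. The alternatives were DESeq2 1.42.0, RLE factors, total counts, other filters, the LPC + dantrolene libraries added, the block, a threshold of 0.1 on the adjusted p, and leaving out single libraries. Some members of the lists are counted but not reported here by name.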

Additional observations from a re-analysis of the deposited data

How the results depend on the processing

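The main counts were 12 genes higher with dantrolene and 17 higher with LPC. They were 33 and 66 with DESeq2's Wald test, 12 and 19 with RLE factors, 16 and 22 with total counts alone, 53 and 104 with no filter on low counts, 10 and 15 with at least 10 counts in every library, 11 and 11 with the LPC + dantrolene libraries added, and 13 and 24 at an adjusted p under 0.1. The share of calls higher with dantrolene was 41.4%, 38.7% with RLE factors, 42.1% with total counts alone, and 33.3% with DESeq2. With the isolation as a replicate block, 2 and 2 genes were called, with 2 residual degrees of freedom in place of 4, and 184 and 262 genes had an unadjusted p under 0.05 in place of 290 and 410. When single libraries were left out the counts ran from 1 to 16 higher with dantrolene and from 1 to 38 higher with LPC. All 29 genes were called with DESeq2, 24 with at least 10 counts in every library, 21 with the LPC + dantrolene libraries added, and 2 without LPC replicate 2. The cause of these shifts was not tested. None of the 29 genes reversed its direction under these settings. List medians moved by more than their spread between isolations only with a library left out, from 0.64 to 1.53 for the AhR pathway, −0.32 to −0.11 for vasoactive genes, 0.15 to 0.38 for LPC and LPA metabolism, −0.34 to −0.10 for angiogenic factors, −0.51 to 0.18 for the genes the study names, −0.16 to 0.10 for endothelial markers, and −0.10 to 0.68 for mitochondrially encoded genes. The median of cohesin and coiled-coil genes ran from −0.69 to 0.17 when a library was left out. LPC + dantrolene was nearer to dantrolene for 11 of 12 genes under every alternative run, and for 13 of 17 without LPC + dantrolene replicate 2 or 3.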
